A study of Mus musculus with 23 samples.

Results

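The 79 genes described here encode most proteins of the cytosolic ribosome in mouse embryonic stem cells (ESCs). They were taken from 37310 rows of the gene count tables as the protein-coding rows whose symbol is Rpl, Rps or Rplp followed by a number and at most 1 letter, without the Rps6k kinases. The set holds 45 genes of the large subunit, 31 of the small subunit and 3 of the P-stalk, and the rule reads only their symbol and type. The study deleted *Zbtb11*, a zinc finger transcription factor, in E14 ESCs and measured RNA by RNA-seq and Zbtb11 binding by ChIP-seq. RNA came from 3 groups of 3 biological replicates, all grown without feeders in serum and LIF. The EtOH control and Zbtb11 KO groups were 1 homozygous CRISPR-made line, Zbtb11 lox/lox Rosa26 ERt2-Cre, given ethanol or 250 nM 4-hydroxytamoxifen (4OHT), which activates Cre, for 48 h. The 4OHT control was Zbtb11 WT/WT Rosa26 WT cells given 250 nM 4OHT. It therefore differed from the EtOH control in both the line and the agent, and the effects of these cannot be told apart. ChIP used a Zbtb11 antibody in wild-type E14 cells (4 libraries) and a FLAG antibody in cells whose endogenous Zbtb11 carries a FLAG tag (3 libraries).

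The cytosolic ribosome joins a small subunit, which reads the mRNA, to a large subunit, which forms peptide bonds, and each holds 1 copy of most of its proteins. Most of the genes are expressed in every cell type, and their mRNAs start with a pyrimidine tract (TOP) through which their translation is controlled. Mitochondria have a ribosome of their own, whose proteins (Mrpl and Mrps) are encoded by other nuclear genes. Deletion of a single cytosolic ribosomal protein gene, even of 1 allele, can slow growth, as in Diamond-Blackfan anaemia.

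The RNA libraries held between 14301457 and 23876604 counts on genes. All 79 genes passed the filter of more than 1 CPM (counts scaled to the size of the library) in at least 3 libraries, as did 14346 genes in all. The replicate 1 libraries added to the spread: without them edgeR called 212, 2420 and 2645 genes in KO against EtOH, 4OHT against EtOH and KO against 4OHT control, where all 9 libraries gave 129, 583 and 925. Results that rest on them are therefore given with and without them. The 8 ESC markers examined were above 10 CPM in every library, at 212 to 1108 CPM. The markers of other cell types summed to 3.88 to 9.40 CPM for primitive endoderm, 2.91 to 5.02 for mesoderm, 16.0 to 26.4 for fibroblasts or feeders and 37.3 to 50.8 for neural ectoderm, where 1 of the 2 markers found was above 10 CPM in every library. In bulk RNA, fewer cells of a type and less RNA per cell cannot be told apart. The *Zbtb11* transcript had no row of its own to check the deletion with, because the long *Rpl24* transcript spans it and both are counted in the *Rpl24* row. The 154 rows for named processed copies of these genes held 0.989 to 1.07% as many counts as the genes themselves, and for 50 genes at least 1 such copy is named. Reads of genes and copies may be exchanged, and the copy *Rps13-ps1*, named after its values were seen, held 51.3% as many counts as *Rps13*. Exons of another gene on the same strand, mostly a snoRNA, overlap 16 of the genes.

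Levels were compared between genes as CPM per kilobase of exon, in the EtOH control. The median ribosomal protein gene stood at 335 CPM per kb, against 6.14 over all protein-coding genes tested, and 70 of the 79 were among the 500 highest. The highest were *Rpl32*, a large-subunit protein (1779 ± 4.82 CPM per kb, SD, n = 3), *Rpl4* (1381 ± 40.8) and *Rps12* (1358 ± 42.2). The lowest were *Rpl10l* (17.3 ± 2.20), *Rpl39l* (8.85 ± 1.18) and *Rpl3l* (0.925 ± 0.275), 3 of the 4 genes whose symbol ends in l. These are paralogs of *Rpl10*, *Rpl39* and *Rpl3*, best known from the testis for *Rpl10l* and *Rpl39l* and from striated muscle for *Rpl3l*. The other paralog, *Rps27l*, a target of p53, stood at 14.0 ± 0.614% of the level of *Rps27* per kb. *Rpl10l* was at 6.12% of *Rpl10*, *Rpl39l* at 6.22 ± 0.841% of *Rpl39* and *Rpl3l* at 0.142% of *Rpl3*. With the length of the longest protein-coding transcript in place of all exons, the same 3 genes were highest and the same 3 lowest. *Rpl24* stood at 61.6 CPM per kb, a value that carries the whole *Zbtb11*-spanning row over 6029 exonic bases.

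Zbtb11 was found at the promoters of many ribosomal protein genes. A promoter was 2 kb upstream to 500 bases downstream of an annotated start, and a window was 1 of the 7500 high-confidence regions at which both antibodies gave peaks. Of the 79 genes, 42 (53.2%) had a window at the promoter, against 4309 of 13351 protein-coding genes tested (32.3%). In 39 of the 42, the centre of the strongest window lay within 300 bases of a start. The median normalised read coverage of the strongest window was 103, and 103 also over all protein-coding genes with a window. It lay above the median of all 7500 windows (71.3) in 30 of the 42. The FLAG control peaks, called in untagged cells, lay at 0 of the 79 promoters, and at 0.262% of the protein-coding ones. At that share 79 promoters would mostly hold 0. The paper also took peaks shared with this control out of its FLAG-Zbtb11 set. In the full peak lists, peaks of the Zbtb11 antibody lay at 48 promoters (37.4% of all protein-coding genes had one) and those of FLAG-Zbtb11 at 47 (37.9%), while 29 had neither, among them those of *Rpl5*, *Rpl10l*, *Rpl39l*, *Rpl3l*, *Rplp0*, *Rplp1* and *Rps12*.

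Coverage is the DiffBind-normalised read coverage of a window. Windows with a mean coverage above 309 over the 4 Zbtb11 libraries are called Zbtb11-high, which was 857 of the 7500 (11.4%). Zbtb11-high windows lay at 10 of the 79 ribosomal protein promoters (12.7%), against 846 of 13351 protein-coding genes (6.34%). The strongest was at *Rps18*, a protein of the small subunit head, at 973 ± 318 (SD, n = 4). Its 4 Zbtb11 libraries gave 796, 1095, 643 and 1357, and its 3 FLAG libraries 1070, 1127 and 551. All 7 values lie above the limit, and the window ranks 23 of 7500. It is shared with the gene *Vps52*, a vesicle tethering protein, whose exons cover the bases upstream of *Rps18*.

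*Rpl37*, a small zinc-binding protein of the large subunit, followed with 826 ± 186 and a FLAG mean of 825. Its Zbtb11 libraries gave 768, 944, 591 and 1002. *Rps7*, a small-subunit protein that also binds Mdm2, had 760.5 ± 211, with 618, 842, 563 and 1020. Both windows are centred just upstream of the start, by 71 bases for *Rpl37* and 65 bases for *Rps7*. *Rpl29* stood at 509 ± 159, with 392, 579, 364 and 701 in its 4 libraries. *Rpl28* (460 ± 71.1), *Rps14* (394 ± 80.6) and *Rps26* (375 ± 45.8) were nearer the limit. *Rps14* and *Rps26* are small-subunit proteins linked to human disorders of blood cell formation. *Rpl14* was the weakest at 332 ± 35.6, with a FLAG mean of 133 and a window centre 1652 bases upstream. With the mean of all 7 libraries it falls below the limit and 9 genes remain Zbtb11-high. The next genes by their strongest window, well below the limit, were *Rplp2* (235), *Rpl27a* (229), *Rps19* (214) and *Rpl34* (212). 

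*Rpl24* had a window at 2 of its starts. The Zbtb11-high window (716 ± 185, chr16:55973356-55974556) lies at the start of the long transcript that spans *Zbtb11*. The window at the first start of *Rpl24* itself (chr16:55965874-55967074) had a coverage of only 44.5 ± 15.5. With only the first start of each gene considered, 9 genes were Zbtb11-high and *Rpl24* was not among them. 

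The promoter sequences of 5 Zbtb11-high genes are shown, since they hold the bases next to the starts near which these windows are centred. They are among those whose window centre lies within 300 bases of the gene start and whose upstream bases overlap no annotated exon, which leaves out *Rps18* and *Rpl24*. Coverage was measured over the whole window and not for these bases. Each line gives the 200 bases of mm9 before the annotated start, 5′ to 3′, with CCGGAAG on either strand, the core recognised by ETS factors such as GABP, in capitals.
Rpl37 (chr15:5066413-5066612, plus strand): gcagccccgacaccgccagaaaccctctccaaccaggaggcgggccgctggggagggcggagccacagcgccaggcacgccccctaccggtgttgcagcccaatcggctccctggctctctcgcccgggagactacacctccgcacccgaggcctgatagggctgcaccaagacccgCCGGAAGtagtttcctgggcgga
Rps7 (chr12:29320819-29321018, minus strand): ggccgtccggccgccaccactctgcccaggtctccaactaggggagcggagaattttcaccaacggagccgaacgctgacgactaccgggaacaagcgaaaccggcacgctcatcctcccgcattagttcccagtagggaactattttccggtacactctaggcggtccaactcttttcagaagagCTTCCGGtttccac
Rpl29 (chr9:106331585-106331784, plus strand): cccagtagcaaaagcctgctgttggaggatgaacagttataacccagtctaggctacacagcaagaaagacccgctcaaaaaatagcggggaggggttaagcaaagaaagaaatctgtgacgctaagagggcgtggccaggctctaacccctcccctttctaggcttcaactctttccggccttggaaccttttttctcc
Rpl28 (chr7:4744276-4744475, plus strand): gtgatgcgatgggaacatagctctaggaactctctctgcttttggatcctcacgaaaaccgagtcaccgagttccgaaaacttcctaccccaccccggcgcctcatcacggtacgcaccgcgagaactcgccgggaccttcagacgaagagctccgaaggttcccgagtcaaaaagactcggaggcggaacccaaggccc
Rps26 (chr10:128063563-128063762, minus strand): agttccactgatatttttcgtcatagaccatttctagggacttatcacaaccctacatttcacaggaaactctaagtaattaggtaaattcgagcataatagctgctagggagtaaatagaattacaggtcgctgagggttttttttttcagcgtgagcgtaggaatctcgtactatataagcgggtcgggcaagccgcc
*Rpl37* carries the string 23 bases before its start and *Rps7* carries its reverse complement 14 bases before its start, while the other 3 hold neither in these bases. In the 300 bases around the gene start (250 before, 50 after), searched on both strands, CCGGAAG was found in 23 of 79 ribosomal protein genes (29.1%), against 16.2% of 13351 protein-coding genes. By binding, this was 4 of 10 with a Zbtb11-high window, 11 of 32 with another window and 8 of 37 with none. The corresponding shares of protein-coding genes were 43% for Zbtb11-high, 28.6% for another window and 8.97% for none. ATGGCGG, the core bound by YY1, was in 11 genes (13.9%, against 7.3%), and GGGCGG, the Sp1 core, in 37 (46.8%, against 61.4%); none of the 3 strings contains another. In the central 300 bases of the 42 windows, ATGGCGG was found in 14 (33.3%), against 5.99% of all windows. All windows include those away from promoters. Among the 10 Zbtb11-high windows at these promoters it was in 1, against 8.52% of all Zbtb11-high windows. GGGCGG was in 25 of the 42 (59.5%), against 39.6% of all windows. CCGGAAG was in 20 of the 42 (47.6%), against 29.4% of all windows and 47.8% of the Zbtb11-high windows. A match is a description of letters and not of binding.

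The question of the KO comparison is whether loss of Zbtb11 alters ribosomal protein gene expression. Of the 79 genes, 0 were called by edgeR's quasi-likelihood test at an adjusted p under 0.05, against 0.899% of all genes tested (0.843% lower and 0.0558% higher). At a share this low 79 genes would often hold 0, so the count alone says little. At an unadjusted p under 0.05 there were also 0, against 2.8% of all genes. DESeq2 called 0 (against 1.25% of all genes), as did the fit with the replicate number as a block (2.25%) and the fit without replicate 1 (1.5%). The median log2 fold change, KO minus EtOH control, was 0.02, against 0.00 over all genes, and 52 were positive and 27 negative. Without replicate 1 the median was 0.006 and 43 were positive, and without replicate 2 the median was 0.05. The lowest unadjusted p was 0.176. Of the 79 genes, 77 had a 95% interval within 0.5 on the log2 scale of 0. The 2 exceptions are low: *Rpl39l* (−0.22, −0.56 to 0.12), with 107 to 462 counts per library, and *Rpl3l* (−0.59 to 0.66), with 26 to 38. For the 76 genes other than these 2 and *Rpl10l*, the intervals ran from −0.30 to 0.33, with 921 to 45739 counts per gene and library. The 3 KO and 3 EtOH values overlapped for each of the 79 genes (0 lay wholly higher and 0 wholly lower, against 3.19% and 4.02% of all genes).

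*Rps18* was 735, 704 and 677 CPM in the EtOH control and 777, 677 and 716 in the KO. *Rpl37* was 334, 344 and 326 against 359, 327 and 351, and *Rps7* 386, 421 and 432 against 439, 439 and 431. In each of these strongly bound genes the KO values overlap those of the EtOH control. The *Rpl24* row, which holds the *Zbtb11* reads, was 355, 373 and 386 against 363, 358 and 363.

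The log2 fold changes of the 10 genes with a Zbtb11-high window ran from −0.04 to 0.10 with a median of −0.001, where *Rps18* was 0.04, *Rpl37* 0.05, *Rps7* 0.08, *Rps14* 0.10 and *Rpl24* −0.04. The medians with another window (32 genes) and with none (37) were 0.02 and 0.04. Over protein-coding genes with a Zbtb11-high window, 112 of 846 (13.2%) were downregulated, against 0.0578% with another window and 0.0664% with none. With the replicate block these shares were 24.7%, 0.347% and 0.321%. With a coverage of 500 or more, a limit set after the values were seen, 0 of 6 ribosomal protein genes and 107 of 550 protein-coding genes (19.5%) were downregulated. Under 500 these were 0 of 4 and 5 of 296 (1.69%). Sets of 10, 6 and 4 genes are small for these shares, so a count of 0 in them says little. Both the 10 and the 6 genes include *Rpl24*, whose Zbtb11-high window lies at the start of the transcript that spans *Zbtb11*. The window at the first start of *Rpl24* had a coverage of 44.5, and the *Rpl24* row also holds *Zbtb11* reads. *Vps52*, named after its values were seen, had a log2 fold change of 0.37 (SE 0.184, edgeR adjusted p = 1) and an adjusted p of 0.000221 with the block.

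**Figure D1:**
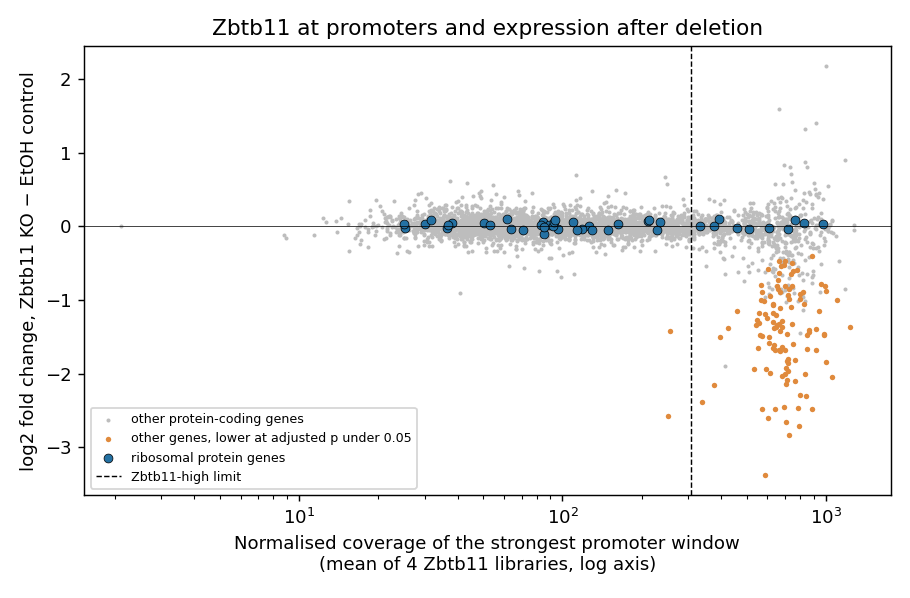
Normalised Zbtb11 coverage of the strongest promoter window (mean of 4 libraries, log axis) against the log2 fold change, KO minus EtOH control, for protein-coding genes with a window. Blue points are the 42 ribosomal protein genes, between −0.10 and 0.10, orange points are downregulated genes, and the dashed line is the Zbtb11-high limit, with 112 downregulated genes to its right and 2 to its left.

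The mitoribosome genes are the contrasting set. Of 75 tested (77 listed), 19 had a Zbtb11-high window (25.3%, against 6.34% of protein-coding genes). Of the 75, 7 (9.33%) were downregulated, against 0.843% of all genes, and 0 upregulated (0.0558% of all genes). With the replicate block 10 were downregulated, against 1.79% of all genes. The downregulated genes were *Mrpl48* (−1.96), *Mrpl1* (−1.65), *Mrpl44* (−1.59), *Mrpl30* (−1.51), *Mrpl3* (−1.42), *Mrps31* (−1.10) and *Mrpl13* (−0.90), and all had a Zbtb11-high window. Among the 15 mitoribosome genes at a coverage of 500 or more, 7 (46.7%) were downregulated, against 19.5% of protein-coding genes at that coverage. Of the cytosolic genes it was 0 of 6, with *Rpl24* among the 6. This contrast was not tested, and 0 of 6 says little beside a share of 19.5%. 

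Other ribosome-related groups also held no called gene in the KO by edgeR, which called 0.899% of all genes. At that share lists this short would mostly hold 0, so the counts say little about them. Of the 16 genes mutated in Diamond-Blackfan anaemia (median 0.007), the 5S particle genes *Rpl5* and *Rpl11* (which bind Mdm2), the 4 X-linked genes, the 4 paralogs and 7 related ribosomal proteins (median 0.003), 0 were called. The 3 P-stalk genes *Rplp0*, *Rplp1* and *Rplp2*, which recruit the translation factors, had 0.06 each and 0 called. The medians of the large and small subunit genes were 0.02 and 0.03. The count was also 0 for 14 other TOP mRNAs (median 0.01), 14 regulators, 6 chaperones and 18 ribosome biogenesis genes. The replicate block called 1.79% of all genes lower. With it *Eif3f*, a subunit of the translation initiation factor eIF3, fell by 0.27 on the log2 scale (edgeR adjusted p = 0.0193). *Polr1b*, a subunit of RNA polymerase I, fell by 0.29 (edgeR adjusted p = 0.00549).

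In the 4OHT control, compared with the EtOH control, 4 of 79 genes were called (5.06%, against 4.06% of all genes), 3 higher (2.06% of all genes) and 1 lower (2.01%). *Rpl39l* was 7.46, 6.33 and 8.28 CPM in EtOH, 6.23, 5.96 and 6.76 in KO and 15.9, 18.8 and 20.5 in the 4OHT control, so the 4OHT values lie above all others. Its log2 fold change was 1.33 (SE 0.146, adjusted p = 0.00213) and its level was 15.3 ± 2.30% of that of *Rpl39* per kb, where the EtOH control had 6.22% and the KO 5.68%. *Rpl32* was 917, 921 and 921 CPM in EtOH, 948, 927 and 886 in KO, and 684, 605 and 620 in the 4OHT control, and fell by 0.53 on the log2 scale (SE 0.0708, adjusted p = 0.00561). *Rpl29*, a heparin-binding protein of the large subunit, was 52.5, 55.7 and 56.5 against 70.6, 66.0 and 69.3 CPM, a log2 fold change of 0.32 (SE 0.0708, adjusted p = 0.04). The KO values of *Rpl29* (53.6, 55.3 and 52.1) overlap those of EtOH. *Rpl13* (624, 611 and 571 against 901, 719 and 742 CPM, 0.39) missed the threshold at an adjusted p of 0.0637, and *Rps3* (0.27), *Rps9* (0.21) and *Rps6* (0.17) were at adjusted p of 0.207 to 0.314. In *Rpl29* and *Rpl13* the 3 values of the 4OHT control lie above the 3 of the EtOH control.

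**Figure D2:**
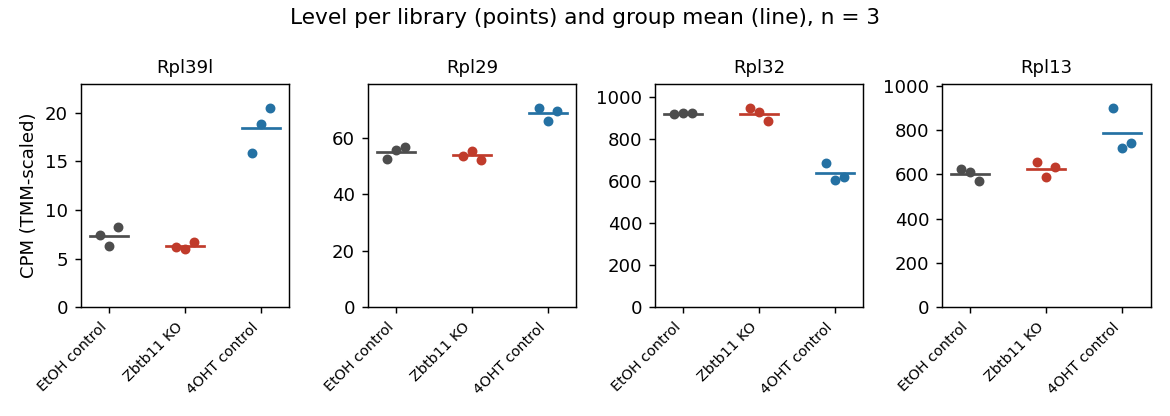
CPM (TMM-scaled) in each library for genes called in the 4OHT control or close to it, as points with the group mean as a line, n = 3 per group. *Rpl39l* is at 15.9 to 20.5 CPM in the 4OHT control, above the 5.96 to 8.28 of the other libraries, and *Rpl32* is lower there, at 605 to 684 CPM against 886 to 948.

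Most of the genes were higher in the 4OHT control without passing the test, with a median log2 fold change of 0.10 (all genes 0.00) and 72 positive to 7 negative. In 22 genes the 3 values lay above all 3 EtOH values (27.8%, against 11.2% of all genes) and in 3, *Rpl30* (named after its values were seen), *Rpl32* and *Rps27l*, below (3.8%, against 10.5%). The size of this difference moved with the replicate 1 libraries. Of these, 4OHT control replicate 1 has the fewest counts and the highest share of reads assigned to no feature (31.6%). It had 72 of 79 genes above its group's mean (91.1%, against 51% of all genes, median 0.13). The KO replicate 1 library had 61 and the EtOH control replicate 1 library 49, fewer than the 54 of EtOH control replicate 2. Without replicate 1 of every group the median was 0.03 and 56 of 79 genes were positive. The part of each single library was not tested. Without replicate 1, 5 genes were called (17.1% of all genes), *Rpl13* being added. With the replicate block, 16 genes were called (33.6% of all genes), 14 higher (17%) and 2 lower, *Rpl32* and *Rps27l* (16.5%). DESeq2 called 5 (8.27%). The calls of *Rpl39l* and *Rpl32* were past the threshold in 11 of 13 fits, that of *Rpl29* in 9; without replicate 2 and without replicate 3 edgeR called 0, with 6 and 5 at an unadjusted p under 0.05 (6.88% and 9.26% of all genes), and 13 and 24 of all genes called. 

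The comparison of KO with the 4OHT control shares its libraries with both others. It called 4 genes (5.06%, against 6.45% of all genes, 3.72% lower and 2.73% higher), 3 lower, among them *Rpl39l* (log2 fold change −1.54, adjusted p = 0.00035) and *Rpl29* (−0.35, adjusted p = 0.0194), and 1 higher, *Rpl32* (0.53, adjusted p = 0.00246). The replicate block called 10 (34.9% of all genes), 9 lower (18.1%) and 1 higher (16.9%), the fit without replicate 1 called 5 (18.7%) and DESeq2 called 5 (10.2%). The 3 KO values lay wholly above those of the 4OHT control in 1 gene (11.1% of all genes) and wholly below in 10 (11.8%). Without replicate 2 and without replicate 3, edgeR called 0 and 1, the latter *Rpl39l*.

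Some of these genes lie in regions whose other genes moved the same way. The regions were picked after the values were seen. *Rpl32* lies at chr6:115755523-115758765, and the other 250 protein-coding genes of chromosome 6 from 100 Mb on had a median of −0.56 in the 4OHT control (92.8% negative, 36.4% called), against −0.01 for the 368 before 100 Mb. *Rpl13* (chr8:125626250-125629144) lies on chromosome 8, whose other 711 protein-coding genes had a median of 0.26 (86.4% positive, 9.14% called). Other autosomes had a median of −0.004 over 11473 genes. In the KO against the EtOH control, chromosome 6 from 100 Mb was at −0.006, its earlier part at −0.014 and chromosome 8 at 0.002. *Rpl32* differed from its region's median by 0.03 and *Rpl13* by 0.13, and each region median lay within the gene's 95% interval. The part of the regions in the values of these genes was not tested. *Rpl39l* on chromosome 16 and *Rpl29* on chromosome 9 lie on chromosomes with medians of −0.03 and 0.003. Without the genes in those 2 regions the median of the ribosomal protein genes was 0.10.

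**Figure D3:**
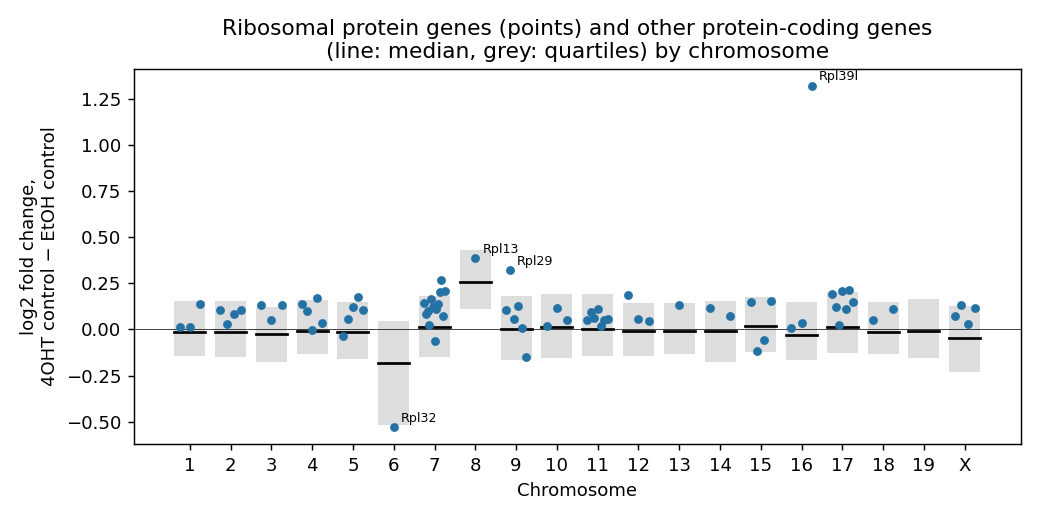
log2 fold change, 4OHT control minus EtOH control, of ribosomal protein genes (points) by chromosome, with the median of the other protein-coding genes as a line and their quartiles in grey. The other genes of chromosome 8 have a median of 0.26, and *Rpl13* lies above it at 0.39. Genes not reported here are not drawn.

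**Figure D4:**
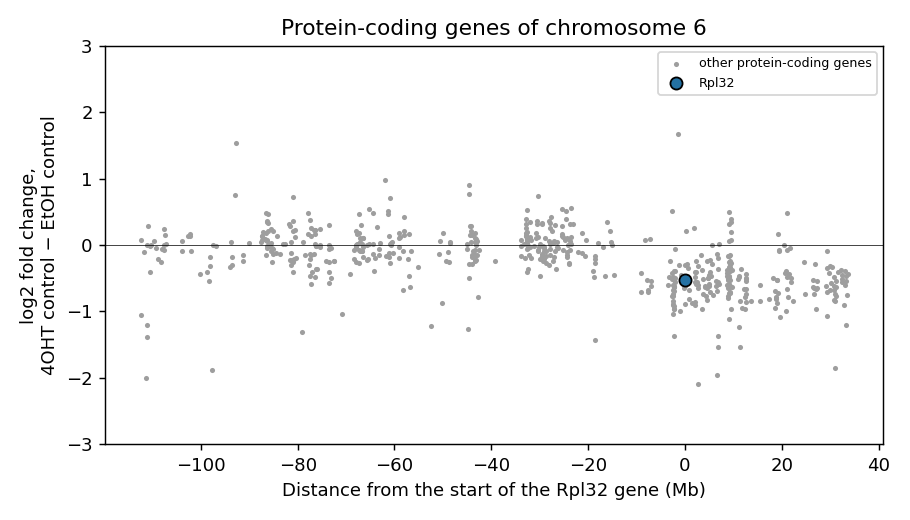
log2 fold change, 4OHT control minus EtOH control, of protein-coding genes of chromosome 6 against distance from the start of the *Rpl32* gene in Mb. *Rpl32* (−0.53) lies within the stretch of genes that have a median of −0.56.

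Ribosomal protein genes took 4.25, 4.09 and 3.93% of the counts in the EtOH control, 4.50, 4.09 and 4.20% in the KO and 4.93, 4.14 and 4.13% in the 4OHT control. The groups overlap, and the replicate 1 library is the highest in each. Counting error is small beside this, with a Wilson 95% interval of 4.92 to 4.94% for the highest library. The mean was 4.09 ± 0.161% (SD, n = 3), 4.26 ± 0.212% and 4.40 ± 0.459%. The KO mean was 0.171 percentage points above that of EtOH (exact permutation test, two-sided, p = 0.5) and the 4OHT control mean 0.309 above (p = 0.4), where 0.1 is the smallest p that 3 against 3 allows. Without replicate 1 the differences were 0.134 and 0.125. In same-number pairs the KO was higher in 2 of 3 (exact sign-flip permutation test, p = 0.5) and the 4OHT control in 3 of 3 (p = 0.25, the smallest that 3 pairs allow). The scaling moved these values: with TMM-scaled CPM in place of counts the KO difference was 0.0634 (exact permutation p = 0.5) and the 4OHT control difference 0.281, with groups that no longer overlap (exact permutation p = 0.1). Without the genes of the mitochondrial genome the KO difference was 0.106 and that of the 4OHT control 0.314.

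**Figure D5:**
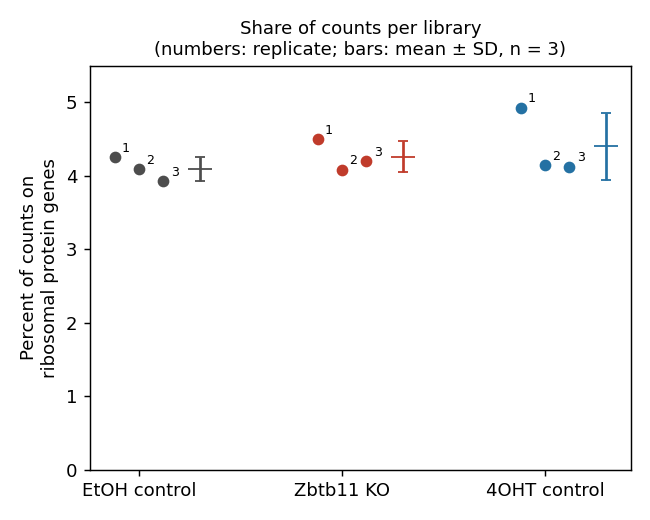
Percent of each library's counts on the ribosomal protein genes, with numbers for the replicate and bars for the mean ± SD, n = 3. The 9 libraries lie between 3.93 and 4.93%, and 4OHT control replicate 1 is the highest.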

How the data were processed

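The gene counts per sample were deposited by the authors, who trimmed reads, aligned them with STAR and counted them with HTSeq. Annotated rows and exon lengths used here are those of GENCODE vM1 (mm9). Rows for unassigned reads stay out of the library sizes (no feature 25.3 to 31.6%, ambiguous 0.790 to 0.905%). For ChIP-seq, the authors aligned reads with Bowtie 1.1.2 to mm9, called peaks with MACS2 and deposited peak lists and a DiffBind-normalised coverage (signal) over 7500 windows. Input libraries were not used here. The authors describe a replicate that stood apart in every group and repeated their test without it. It is not numbered there, so all 9 libraries enter the fit here and values without replicate 1 are given beside it.

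Counts were normalised by TMM and tested with edgeR 4.0.16 (R 4.3.3, limma 3.58.1) by quasi-likelihood F tests over all 9 libraries, with Benjamini-Hochberg adjustment over the 14346 genes that passed the CPM filter; a call is an adjusted p under 0.05. Tables were handled in Python 3.11.15 (pandas 2.3.3, numpy 2.4.6, scipy 1.17.1). Alternatives were DESeq2 1.42.0, other size factors, filters, the replicate number as a block and leaving out a replicate. Replicate numbers were taken to pair the samples in the block fits. Deviations from the group means correlated at 0.43 to 0.82 in the 9 same-number pairs, and at −0.753 to 0.526 in the 18 others. The ranges overlap: EtOH control 2 correlated at 0.526 with 4OHT control 3 and at 0.430 with 4OHT control 2. Every negative value involved a replicate 1 library. Wilson intervals were computed for the shares of counts and cover counting error only. Genes are named if called in the KO, among the 8 lowest adjusted p in the 4OHT control, with a Zbtb11-high window, among the 3 highest or lowest levels, in a listed set whose count is given, as paralogs or as *Rpl24*. Some genes that the rule names are not reported here, but remain in all counts. The members, lists and tests were chosen with earlier results of these data known. The Zbtb11-high limit adds 1.5 times the interquartile range to the third quartile of coverage over windows.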

Additional observations from a re-analysis of the deposited data

How the results depend on the processing

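In the KO comparison, 0 ribosomal protein genes were called in the 13 fits, which called 0.0896 to 2.27% of all genes. The replicate block therefore changed nothing there. For the 4OHT control against the EtOH control, the 4 calls (4.06% of all genes) became 16 with the replicate block (33.6% of all genes). They became 2 with only the compared groups (1.22%), and 0 to 5 when a replicate was left out (0.0896 to 17.1%). For the KO against the 4OHT control, the 4 calls (6.45% of all genes) became 10 with the replicate block (34.9% of all genes). They became 2 with only the compared groups (4.05%), and 0 to 5 when a replicate was left out (0.565 to 18.7%). Without replicate 1 and with the replicate block, an alternative chosen after seeing the data, there were 7 (29.5%). The cause was not tested. In the KO, beside the block values printed with the results, the replicate block changed no other call of the ribosomal protein genes or the lists.

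Small fold changes of the KO changed sign. With library sizes in place of TMM, *Rpl29* was 0.0054, *Rpl28* 0.0128, *Rps26* 0.0369 and *Rpl14* 0.038. *Rps26* and *Rpl14* were 0.0019 and 0.003 with TMM without the ribosomal protein genes, 0.0022 and 0.0031 without a filter, and 0.0057 and 0.0068 above 5 CPM. Leaving out a replicate gave −0.0649 to 0.0086 for *Rpl29*, −0.0484 to 0.0063 for *Rpl28*, −0.0352 to 0.0209 for *Rps26* and −0.0295 to 0.0163 for *Rpl14*. Of the remaining values for single genes, 166 counted as unchanged, 8 no longer passed the threshold and 8 newly passed it. Unchanged means the same direction and side of the threshold, except for levels per length, which have neither. Medians and shares kept their sign. Depth limits *Rpl3l* most, at 26 to 38 counts per library. The number of genes with a Zbtb11-high window was 9 to 11 and with any window 40 to 45 under the alternatives. With the full peak lists in place of windows it was 48 for the Zbtb11 antibody (37.4% of protein-coding genes) and 47 for FLAG-Zbtb11 (37.9%).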
